A study of Mus musculus with 6 samples.

Results

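The interferon-stimulated genes are 43 genes that cells switch on when an interferon binds its receptor. They were taken by name from a fixed list, and all 43 were among the 24532 genes of the deposited mouse liver table. All 43 also passed the filter on low counts, which left 14415 genes to be tested. By role, 35 were treated as targets of type I interferon, and 8 were GTPases of the Gbp and Irg families, which are classed with interferon-gamma. The comparison is of injured livers with and without rhCYGB, recombinant human cytoglobin, an oxygen-binding globin given by injection. Livers came from 6 wild-type C57BL/6 mice that were all fed 0.1% DDC (3,5-diethoxycarbonyl-1,4-dihydrocollidine), an agent that injures bile ducts and causes scarring, over 4 weeks. In the final 2 weeks, 3 of them were injected with 2 mg/kg rhCYGB and 3 with normal saline, both on 2 days of each week, and tissue was collected 2 days after the final injection. Each library is 1 mouse, the labels give no age or sex, and a liver without DDC was not analysed here.

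Type I interferons (alpha and beta) and interferon-gamma act through separate receptors. Type I interferon acts on DNA motifs called interferon-stimulated response elements (ISRE), bound by a complex that includes STAT2 and IRF9, while interferon-gamma acts on gamma-activated sites (GAS). Many genes answer both, so the 2 classes used here overlap in what induces them. In liver, hepatocytes and resident and recruited immune cells all carry these receptors, and the products sense viral RNA, block viral translation and replication, or attack the vacuoles of intracellular parasites.

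Type I targets had lower counts in the rhCYGB livers for 30 of 35 genes, whereas the Gbp and Irg GTPases were lower in 3 of 8 and higher in 5 of 8, with Gbp7 at 0.0040. The GTPase count rested on rhCYGB replicate 3, since 7 of 8 were lower without it. All 8 were lower with voom quality weights, and also on the log2(TPM + 1) scale, where 87.2% of all genes were lower. The median log2 fold change, rhCYGB over vehicle, was −0.58 for the type I targets and 0.046 for the GTPases, beside −0.056 for all genes tested. None of the 43 genes passed the test: edgeR's quasi-likelihood test with Benjamini-Hochberg adjustment called 0 of 14415 genes (0%) at the threshold of 0.05, and no member had an adjusted p below 0.523. At an unadjusted p under 0.05, 5 members were lower (Rtp4, Ifit3, Oas2, Oasl2 and Ifi44; 2.06% of all genes were) and 1 was higher (Irf7; 6.06% of all genes were). In 9 members, or 20.9% of the 43, all 3 rhCYGB libraries lay below all 3 vehicle libraries, against 7.38% of all genes. These 9 were Isg15, Ifit3, Oas1a, Oas1g, Oas2, Oasl2, Rsad2, Ifi44 and Rtp4, all of them type I targets. No member had all 3 rhCYGB libraries above all vehicle libraries, which 6.02% of all genes had. Over the 43 genes, 33 were lower, beside 53.2% of all genes, and the median was −0.57.

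The libraries held 58422095 to 72431373 estimated counts each. Within the rhCYGB group, replicate 1 stood apart from the rest: on the leading principal component (67.6% of the variance of log2 CPM) it fell within the range of the 3 vehicle libraries, far from rhCYGB replicates 2 and 3. Replicates 2 and 3 also had the lowest scaling factors (0.744 and 0.630, against 1.07 to 1.45 in the other 4) and relatively fewer counts on long transcripts. In replicate 3, the ribosomal precursor gene Rn45s took 1.74% of counts, against 0.225% to 0.443% in the other 5 libraries, and 14933 genes had a count, the fewest of the 6. Without rhCYGB replicate 1, the same test called 3391 genes (1537 lower, or 10.5% of the 14647 tested, and 1854 higher, 12.7%). Of the members, 14 were then called, and they are given below with and without this library. It was left out because it lay among the vehicle libraries, so calls made without it describe replicates 2 and 3. CPM values are counts scaled to a common library total by the trimmed mean of M-values (TMM) and compare libraries within a gene, while TPM values are also scaled for transcript length and compare genes. A p-value here sets the group difference against the spread between single mice.

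**Figure D1:**
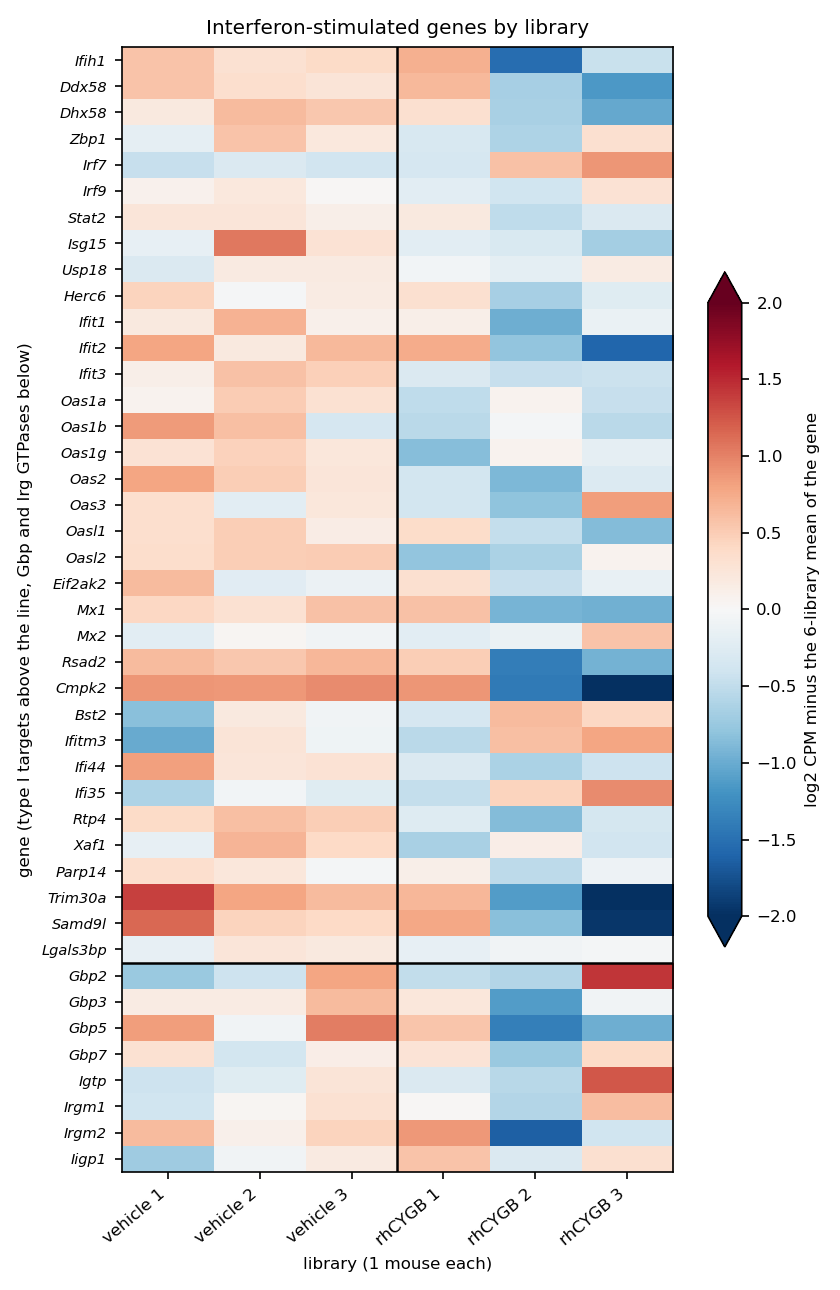
Colours show the log2 CPM of each of the 43 genes (rows) in each of the 6 libraries (columns) minus that gene's mean over the libraries, with the type I targets above the dividing line and the 8 GTPases below. Of the 35 type I targets, 20 were below their mean in rhCYGB replicate 1, 28 in replicate 2 and 25 in replicate 3, against 5 to 10 in the vehicle libraries, and all 8 GTPases were lowest among rhCYGB libraries in replicate 2.

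The DNA around the start sites was read for the motifs of both pathways. In the RefSeq promoter table (build GRCm38, which is mm10), 33 of the 43 genes had a window of 250 bases before to 50 bases after the start. Dhx58, Zbp1, Usp18, Oas1b, Oas2, Mx1, Mx2, Rtp4, Parp14 and Iigp1 had no entry in it. An ISRE core (GAAA, any 2 bases, GAAA, on either strand) was in 20 of these 33 windows (60.6%), beside 3.44% of all 32851 windows of this length. A GAS motif (TTCNNNGAA, a palindrome, so equal on both strands) was in 10 of 33 (30.3%), beside 8.30% of all windows. By class, 14 of 26 type I windows and 6 of 7 GTPase windows held the ISRE core, and 6 of 26 and 4 of 7 held the GAS motif. Both motifs were in 8 windows and neither in 11. For the 4 genes with 2 windows, the one nearest the authors' start was used, and Gbp3 alone would gain a motif from the other. Its window, 140 bases from that start, held neither motif, while its other window held the ISRE core. Whether Ifit2 and Trim30a would lose their motif in the other window was not checked. Since 27 of the 33 starts coincided with the start in the authors' transcript table, the windows describe the annotated starts, not measured ones.

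The 5 stretches below are the 200 bases before the start, written 5′ to 3′ on the gene's strand, with motif matches in capitals. Isg15 and Ifit3 are shown as type I targets without overlap between the groups, Igtp and Irgm2 as neighbouring GTPases with the same pair of motifs, and Irf7 as the gene with the highest fold change among the members.
Isg15 (chr4:156200819-156201018, minus strand): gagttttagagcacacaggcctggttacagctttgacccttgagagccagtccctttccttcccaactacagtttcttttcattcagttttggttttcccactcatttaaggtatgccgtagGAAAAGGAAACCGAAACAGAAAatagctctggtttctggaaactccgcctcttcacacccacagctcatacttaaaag
Ifit3 (chr19:34583329-34583528, plus strand): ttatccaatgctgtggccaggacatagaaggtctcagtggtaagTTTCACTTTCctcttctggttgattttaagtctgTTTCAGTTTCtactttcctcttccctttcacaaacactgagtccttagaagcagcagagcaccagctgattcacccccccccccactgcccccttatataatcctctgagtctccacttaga
Igtp (chr11:58199356-58199555, plus strand): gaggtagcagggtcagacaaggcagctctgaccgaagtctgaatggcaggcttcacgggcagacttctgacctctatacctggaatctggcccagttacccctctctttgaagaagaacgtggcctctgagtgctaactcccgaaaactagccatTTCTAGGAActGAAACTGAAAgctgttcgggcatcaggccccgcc
Irgm2 (chr11:58214777-58214976, plus strand): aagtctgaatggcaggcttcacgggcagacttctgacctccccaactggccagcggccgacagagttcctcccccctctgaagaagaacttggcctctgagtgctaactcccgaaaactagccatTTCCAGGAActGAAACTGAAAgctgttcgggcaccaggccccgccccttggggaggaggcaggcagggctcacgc
Irf7 (chr7:141266425-141266624, minus strand): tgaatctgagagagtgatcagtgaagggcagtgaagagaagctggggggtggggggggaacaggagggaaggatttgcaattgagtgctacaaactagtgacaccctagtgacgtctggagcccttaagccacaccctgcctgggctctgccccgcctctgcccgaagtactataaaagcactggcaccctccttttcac

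Isg15 has 3 overlapping ISRE cores, which begin 78, 72 and 66 bases before its start, and Ifit3 has 2 on the other strand, at 156 and 122 bases. Igtp and Irgm2 each have a GAS motif whose first base lies 11 bases before that of an ISRE core, at 45 and 34 bases before the start in Igtp and at 75 and 64 bases in Irgm2. Shifted by 30 bases, the 300-base windows of these 2 genes were identical at 184 of 270 positions (68.1%), with the longest identical run 61 bases long. The Irf7 window held neither motif in these letters. Among type I targets with a window, the median log2 fold change was −0.58 in the 14 with an ISRE core and −0.59 in the 12 without. The search allowed no variant letters and no sites outside the window, so these 12 are not shown to lack the element.

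The nucleic acid sensors detect viral RNA or DNA and start interferon production. All 4 had lower counts with rhCYGB, with log2 fold changes from −0.81 to −0.39, and none passed the test. Zbp1, a sensor of Z-form nucleic acids that triggers cell death and the most abundant of the 4 by length-scaled level (26.1 TPM), had 14.7, 24.8 and 19.3 CPM in the vehicle libraries and 13.2, 10.8 and 20.8 CPM in the rhCYGB libraries. Its groups overlapped because rhCYGB replicate 3 lay inside the vehicle range. Dhx58, which encodes LGP2, a helper of the RNA helicase sensors, had 8.65, 11.8 and 11.1 CPM in vehicle mice, against 9.42, 4.81 and 3.69 CPM in rhCYGB mice, a log2 fold change of −0.81 ± 0.40 (SE). In Dhx58, replicates 2 and 3 were below all vehicle libraries and replicate 1 was not. Ifih1 (MDA5) and Ddx58 (RIG-I), the helicase sensors themselves, had the same arrangement, with log2 fold changes of −0.57 ± 0.52 and −0.57 ± 0.46. Without rhCYGB replicate 1, the library not below the vehicle range in these genes, edgeR called all 3 helicase genes lower, beside 10.5% of all genes. The log2 fold changes were then −1.31 for Dhx58 (edgeR adjusted p 0.0257), −1.32 for Ifih1 (adjusted p 0.0335) and −1.28 for Ddx58 (adjusted p 0.0216). With the length trend also removed from that comparison, only Dhx58 of these 3 was called.

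Of the 3 signalling factors, Irf7 had the opposite sign from most type I targets. IRF7 is the transcription factor that amplifies interferon-alpha production, and its own gene is a classic interferon target. Irf7 (chromosome 7, 141263183 to 141266424) had 42.4, 47.7 and 44.6 CPM in the vehicle libraries and 45.9, 87.0 and 107 CPM in the rhCYGB libraries. Replicate 1 sat inside the vehicle range and replicates 2 and 3 lay far above it, so the groups overlapped. Group means were 44.9 ± 2.65 and 80.1 ± 31.2 CPM (SD, n = 3), and the log2 fold change was 0.83 ± 0.34 (SE), with an edgeR adjusted p of 0.523. Without replicate 1 it was 1.11 and was called (edgeR adjusted p 0.0213), and with the length trend removed as well it was also called. On the log2(TPM + 1) scale, where the median of all genes was −0.51, its log2 fold change was 0.0057. The members of the type I transcription complex, Stat2 and Irf9, had log2 fold changes of −0.38 ± 0.26 and −0.18 ± 0.26 (SE), and neither passed the test.

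ISG15 is a ubiquitin-like protein that is attached to other proteins; HERC6 is the ligase that attaches it in mice, and USP18 removes it and damps the type I receptor. Isg15 (chromosome 4, 156199424 to 156200818) had 5.6, 13 and 7.68 CPM in vehicle mice, against 5.41, 5.07 and 3.90 CPM in rhCYGB mice. All 3 rhCYGB values were below the vehicle values, but replicate 1 was only just below the lowest of them. Its log2 fold change was −0.87 ± 0.38 (SE; edgeR adjusted p 0.523), and −1.28 after the length trend was removed, Isg15 being a short transcript of 756 bases. Usp18 was near 0 (−0.054 ± 0.26) and Herc6 had −0.35 ± 0.33 (SE), and neither passed the test.

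The Ifit proteins bind viral RNA ends and stop its translation. All 3 members were lower. Ifit3 (chromosome 19, 34583529 to 34588982) had 8.61, 12 and 11 CPM in the vehicle livers and 6.5, 5.73 and 5.87 CPM in the rhCYGB livers, with group means of 10.5 ± 1.74 and 6.04 ± 0.411 (SD, n = 3). The groups did not overlap, and here replicate 1 was close to the other rhCYGB libraries. The log2 fold change was −0.80 ± 0.26 (SE), with an edgeR adjusted p of 0.523. Ifit1 and Ifit2 had −0.62 ± 0.38 and −0.78 ± 0.59, and in both, replicate 1 lay within the vehicle range while replicates 2 and 3 were below it. Ifit3 has a near-identical neighbour, Ifit3b, and the division of reads between them is the assembler's estimate. Ifit3b, from the list of other type I targets, had 3.22, 3.45 and 3.34 CPM in vehicle mice, against 2.20, 0.816 and 0.823 CPM in rhCYGB mice, also without overlap.

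The 2′-5′-oligoadenylate synthetases make the messenger that activates RNase L, and Eif2ak2 encodes PKR, which stops translation on sensing double-stranded RNA. All 8 genes of this group were lower, from −1.02 to −0.080, although Oas3 and Eif2ak2 turned to 0.32 and 0.089 once the length trend was removed. Oas2 (chromosome 5, 120730333 to 120749848) had 4.12, 3.36 and 2.82 CPM in vehicle mice, against 1.84, 1.26 and 1.97 CPM in rhCYGB mice, a log2 fold change of −1.02 ± 0.35 (SE; edgeR adjusted p 0.523). Oasl2, an OAS-like gene, had 9.44, 10.4 and 10.6 CPM in vehicle mice, against 4.27, 4.73 and 7.73 CPM in rhCYGB mice, a log2 fold change of −0.87 ± 0.32. In both genes the groups did not overlap, and replicate 1 was as low as the other rhCYGB libraries. Oas1a and Oas1g, near-identical copies whose shared reads were divided by the assembler, likewise did not overlap, with −0.58 ± 0.30 and −0.60 ± 0.36. Oasl1, which has the highest length-scaled level of the group (21.2 TPM) and limits IRF7 translation, had 27.7, 30.9 and 24.4 CPM in vehicle mice, against 28.2, 15.8 and 12 CPM in rhCYGB mice. In Oasl1, unlike Oas2 and Oasl2, replicate 1 was inside the vehicle range. Without that library, Oasl1 was called lower (−1.0, edgeR adjusted p 0.0308), whereas Oas2, Oasl2, Oas1a and Oas1g were not.

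The Mx genes encode dynamin-like antiviral GTPases, and in C57BL/6 mice both carry defects that leave no functional protein. Both were low here, at 0.921 TPM for Mx1 and 2.88 TPM for Mx2. Mx1 had 1.56, 1.45 and 1.77 CPM in vehicle mice, against 1.76, 0.594 and 0.584 CPM in rhCYGB mice, and Mx2 had 3.49, 4.16 and 3.85 CPM in the vehicle libraries and 3.49, 3.69 and 5.98 CPM in the rhCYGB libraries. Mx1 was lower in replicates 2 and 3 only (−0.69 ± 0.54, or −1.44 without replicate 1 with an edgeR adjusted p of 0.0521), and Mx2 was not below the vehicle range in any rhCYGB library (0.19 ± 0.33). Neither passed the test.

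Rsad2, which encodes viperin, a radical enzyme that makes a chain-terminating nucleotide, and its neighbour Cmpk2, a mitochondrial nucleotide kinase, lie side by side on chromosome 12. Cmpk2 (chromosome 12, 26469215 to 26479837) had 5.45, 5.42 and 5.69 CPM in the vehicle libraries and 5.47, 1.09 and 0.637 CPM in the rhCYGB libraries. Replicate 1 sat at the vehicle level, and replicates 2 and 3 were several times lower. The log2 fold change was −1.19 ± 0.75 (SE), and without replicate 1 it was −2.66 and called (edgeR adjusted p 0.0212). Rsad2 showed the same arrangement, with 5.28, 4.98 and 5.42 CPM for vehicle and 4.78, 1.28 and 1.75 CPM for rhCYGB, except that replicate 1 was slightly below all vehicle values (−1.0 ± 0.52). Rsad2 falls outside the rule for named genes and was chosen after its values were seen.

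Bst2 (tetherin, which holds budding virus at the cell surface) and Ifitm3 (which blocks viral fusion) were the most abundant members per length, at 339 and 953 TPM over the 6 libraries. Ifitm3 had 183, 439 and 345 CPM in vehicle mice, against 252, 558 and 634 CPM in rhCYGB mice. The groups overlapped, with replicate 1 the lowest rhCYGB library and vehicle replicate 1 the lowest of all. Their log2 fold changes, 0.58 ± 0.48 for Ifitm3 and 0.47 ± 0.38 for Bst2, became −0.18 and −0.17 once the length trend was removed. Both transcripts are short, at 648 and 766 bases, and the direction of either gene depended on this choice.

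The other induced genes were lower in 7 of 8 cases. Rtp4 (chromosome 16, 23609919 to 23614222), a chaperone for surface receptors, had the smallest unadjusted p of any member. It had 10.9, 12.6 and 11.7 CPM in vehicle mice, against 6.89, 4.53 and 6.48 CPM in rhCYGB mice, which gave group means of 11.7 ± 0.869 and 5.97 ± 1.26 (SD, n = 3). The groups did not overlap. The log2 fold change was −0.97 ± 0.28 (SE; edgeR adjusted p 0.523), −1.15 with the length trend removed, and −1.10 without replicate 1, where it was called (edgeR adjusted p 0.0327). Ifi44, an interferon-induced cytosolic protein, had 2.73, 1.83 and 1.88 CPM in vehicle mice, against 1.25, 0.983 and 1.14 CPM in rhCYGB mice, also without overlap (−0.93 ± 0.37). Trim30a, a TRIM protein that dampens inflammatory signalling, had the lowest fold change of all 43 genes, −1.39 ± 0.72, from 9.50, 6.37 and 5.70 CPM with vehicle to 5.84, 1.67 and 0.691 CPM with rhCYGB. Its SE was large because replicate 1 stayed at the vehicle level while replicates 2 and 3 were far lower. Lgals3bp, a secreted glycoprotein and the most abundant of the group per length (72.8 TPM), was nearly flat, with 79.1, 104 and 101 CPM for vehicle and 78.5, 84.1 and 85.4 CPM for rhCYGB (−0.20 ± 0.23). Samd9l, Xaf1 and Parp14 had −0.96, −0.61 and −0.32, Parp14 turning to 0.055 with the length trend removed. Ifi35, the exception, had 0.70 ± 0.38, with replicates 2 and 3 above and replicate 1 within the vehicle range, as in Irf7.

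**Figure D2:**
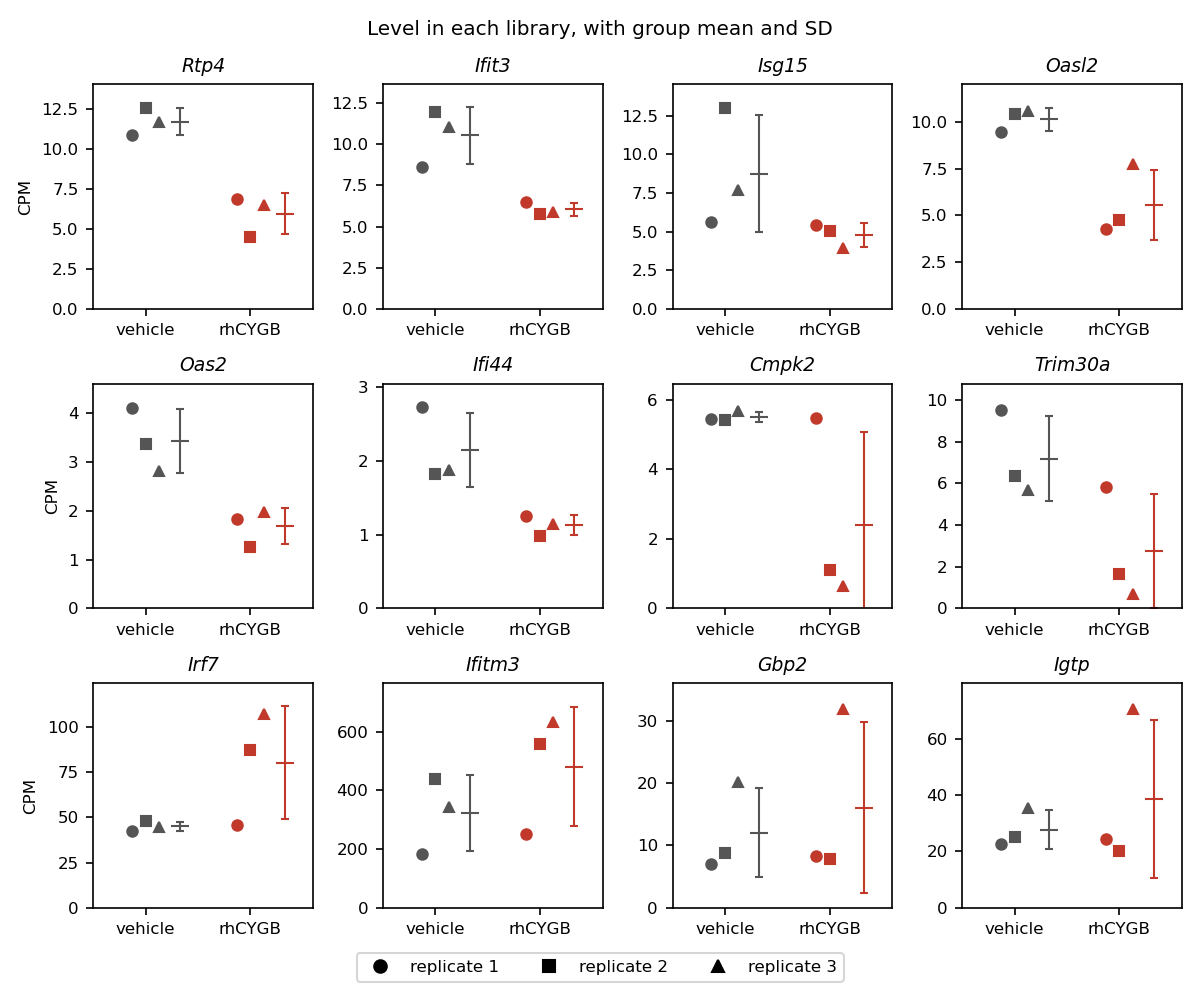
Points are the CPM of named members in each of the 3 vehicle and 3 rhCYGB libraries, with the marker shape giving the replicate, and the bars are the group mean and SD (cut at 0), each panel having its own axis from 0. In Ifit3, Oas2, Oasl2, Ifi44 and Rtp4 the 2 groups do not overlap, in Cmpk2 and Trim30a replicate 1 sits with the vehicle libraries, and in Irf7 replicates 2 and 3 are the highest.

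The Gbp proteins are large GTPases that coat and break the vacuoles of intracellular pathogens. Among the 4 members, 2 were lower and 2 higher, and none passed the test. Gbp2, the most abundant per length (8.92 TPM), had 7.04, 8.82 and 20.2 CPM in vehicle mice, against 8.31, 7.85 and 31.8 CPM in rhCYGB mice. Vehicle replicate 3 and rhCYGB replicate 3 stood above the other 4 libraries, and the log2 fold change was 0.41 ± 0.66 (SE). Gbp5, which promotes inflammasome assembly, was scarce, with 1.57, 0.823 and 1.78 CPM in vehicle mice, against 1.29, 0.315 and 0.425 CPM in rhCYGB mice, a log2 fold change of −1.02 ± 0.65. Without replicate 1, Gbp5 was called lower (−1.92, edgeR adjusted p 0.0475). Gbp3 had −0.55 ± 0.40 and Gbp7 0.004 ± 0.38. The Gbp genes are a cluster of close copies on chromosome 3, so their division of reads is also an estimate.

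The Irg proteins are smaller immunity-related GTPases of the same defence. Iigp1, which loads onto parasite vacuoles and was the third most abundant member per length (101 TPM), had 106, 165 and 196 CPM in vehicle mice, against 256, 142 and 216 CPM in rhCYGB mice. The groups overlapped, and rhCYGB replicate 1 was the highest of the 6 (0.40 ± 0.35). Igtp (chromosome 11, 58199556 to 58207592), a regulatory Irg protein also called Irgm3, had 22.4, 25.2 and 35.5 CPM in vehicle mice, against 24.4, 20.3 and 70.7 CPM in rhCYGB mice. In Igtp, rhCYGB replicate 3 was far above the highest vehicle library and replicate 2 slightly below the lowest. The log2 fold change was 0.47 ± 0.50. Irgm2 (chromosome 11, 58214977 to 58222783), the neighbour with the matching promoter stretch and chosen here after its values were seen, had 28.1, 19.4 and 24.7 CPM for vehicle and 33.2, 5.81 and 13.8 CPM for rhCYGB (−0.45 ± 0.57). In rhCYGB replicate 3, then, Igtp was above and Irgm2 below every vehicle library, whereas in replicate 2 both were below. Irgm1 had 0.087 ± 0.36.

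The lower values were spread unevenly over the rhCYGB libraries. In rhCYGB replicate 1, 15 members (34.9%) were below the lowest vehicle library, all of them type I targets, beside 20.5% of all genes. Replicate 2 had 32 members below (74.4%, beside 42.2% of all genes), and replicate 3 had 27 (62.8%, beside 45.5%). By class, replicate 2 had 26 of 35 type I targets and 6 of 8 GTPases below, and replicate 3 had 24 of 35 and 3 of 8. In replicate 3, 12 members lay above the highest vehicle library, 5 of them GTPases, beside 37.4% of all genes. Replicate 3, the library with the highest Rn45s share, exceeded replicate 2 in 8 of 8 GTPases and 21 of 35 type I targets, beside 48.8% of all genes. Thus 8 members were below the vehicle range in no rhCYGB library: Irf7, Usp18, Mx2, Bst2, Ifitm3, Ifi35, Gbp2 and Iigp1.

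Per library, each gene's log2 CPM was set against its mean over the 6 libraries, and the median was taken over the class. For type I targets the medians were 0.33, 0.33 and 0.23 in the vehicle libraries and −0.20, −0.52 and −0.29 in the rhCYGB libraries, which do not overlap. With the length trend removed they were 0.21, 0.35 and 0.21 against −0.00019, −0.45 and −0.23, again without overlap. For GTPases the medians were −0.12, −0.070 and 0.38 in vehicle mice and 0.26, −0.67 and 0.36 in rhCYGB mice, and the groups overlapped. The type I median minus the GTPase median was 0.45, 0.40 and −0.15 in vehicle mice and −0.46, 0.15 and −0.64 in rhCYGB mice. These overlapped as well, so the difference of −0.63 between the class medians of the log2 fold changes was not separated from the spread between mice. It ranged from −0.76 to −0.18 when each library was left out in turn, the latter without rhCYGB replicate 3. The GTPase median alone was −0.32 without rhCYGB replicate 3 and 0.31 without rhCYGB replicate 2.

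**Figure D3:**
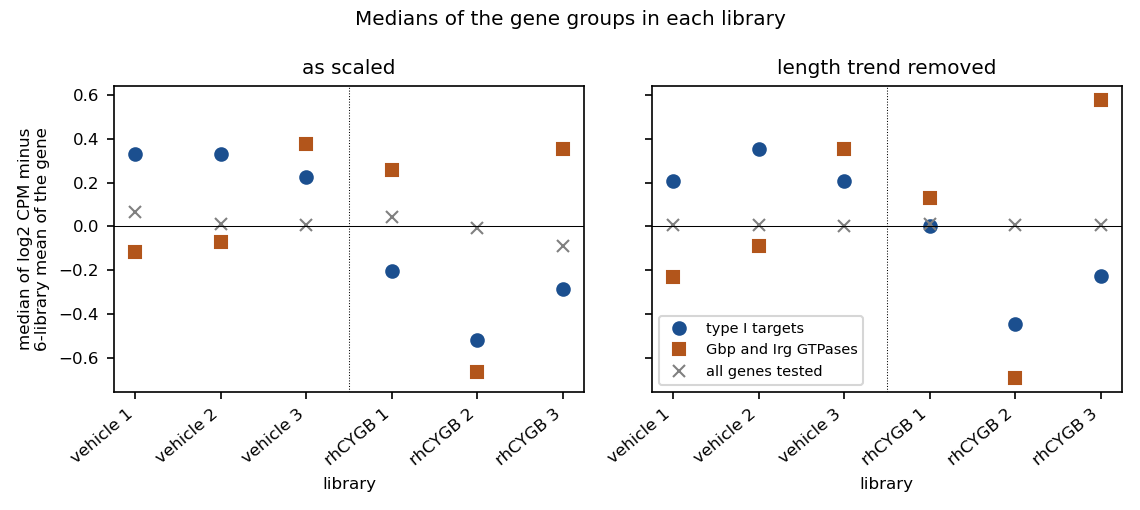
Points are medians, over the genes of each class, of log2 CPM minus the gene's mean over the 6 libraries, as scaled by TMM (left) and with each library's length trend removed (right). Type I medians are above 0 in the vehicle libraries and below it in the rhCYGB libraries, the closest being replicate 1 at −0.20 as scaled by TMM and at −0.00019, on the zero line, with the length trend removed, while the GTPase medians of the groups overlap.

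**Figure D4:**
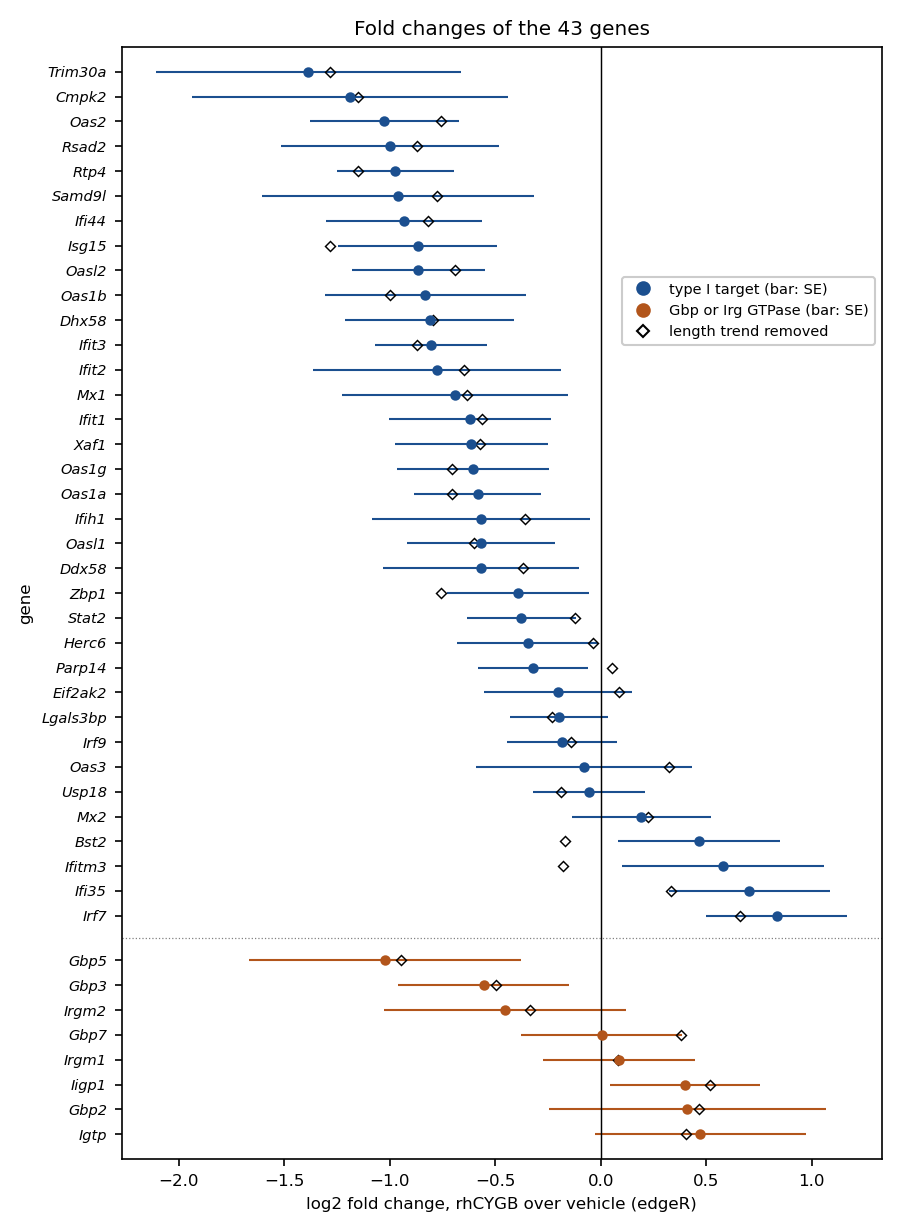
Filled points are edgeR log2 fold changes (rhCYGB over vehicle) with SE for all 43 genes, in the 2 classes, and open diamonds are the same with the length trend removed. Type I targets spread from −1.39 (Trim30a) to 0.83 (Irf7) with 30 of 35 below 0, and the GTPases from −1.02 (Gbp5) to 0.47 (Igtp).

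By length-scaled level, the members spanned from Ifitm3 at 953 TPM to Oas3 at 0.626 TPM (mean over 6 libraries). After Ifitm3 and Bst2 came Iigp1 at 101 (49.95 to 177), Lgals3bp at 72.8 (36.2 to 102), Irf7 at 53.6 (46.6 to 65.9) and Ifi35 at 49.3 TPM (43.1 to 54.1). In parentheses are the lowest and highest library, which overlap for each of these 4 neighbours, whereas the range of Bst2 (245 to 409 TPM) did not overlap that of Ifitm3 (791 to 1201 TPM). In all, 3 members averaged over 100 TPM, 16 from 10 to 100, and 24 below 10, of which Oas3, Gbp5 and Mx1 were below 1 TPM. Isg15 and the Ifit genes, which are usually prominent in an interferon response, stood at 16.5 TPM for Isg15 and 3.15 to 7.76 TPM for the Ifit family.

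Fold changes varied with transcript length in this series. Over all genes tested, the log2 fold change correlated with log2 length at a Pearson r of −0.39 (14415 genes), and over the members at −0.32 (43 genes). Genes are not independent replicates, and all points share the same 6 libraries. Of the 5 members up to 1500 bases, 2 were lower, and of the 14 members over 3500 bases, 13 were lower, beside 23.7% and 72.2% of all genes in those classes. The members' medians in these classes were 0.47 and −0.51, beside 0.54 and −0.30 for all genes. After removal of the length trend the type I median was −0.60 and the GTPase median 0.23, with all genes at −0.0040, and 32 of 43 members were lower beside 50.3% of all genes. On that scale 8 members were lower at an unadjusted p under 0.05, beside 2.92% of all genes, and edgeR again called none at an adjusted p of 0.05. On the log2(TPM + 1) scale, 42 of 43 members were lower, beside 87.2% of all genes, and the median of all genes was −0.51. There the type I median was −0.95 and the GTPase median −0.53, so relative to all genes the type I targets were lower and the GTPases near the median, as in the TMM scale.

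**Figure D5:**
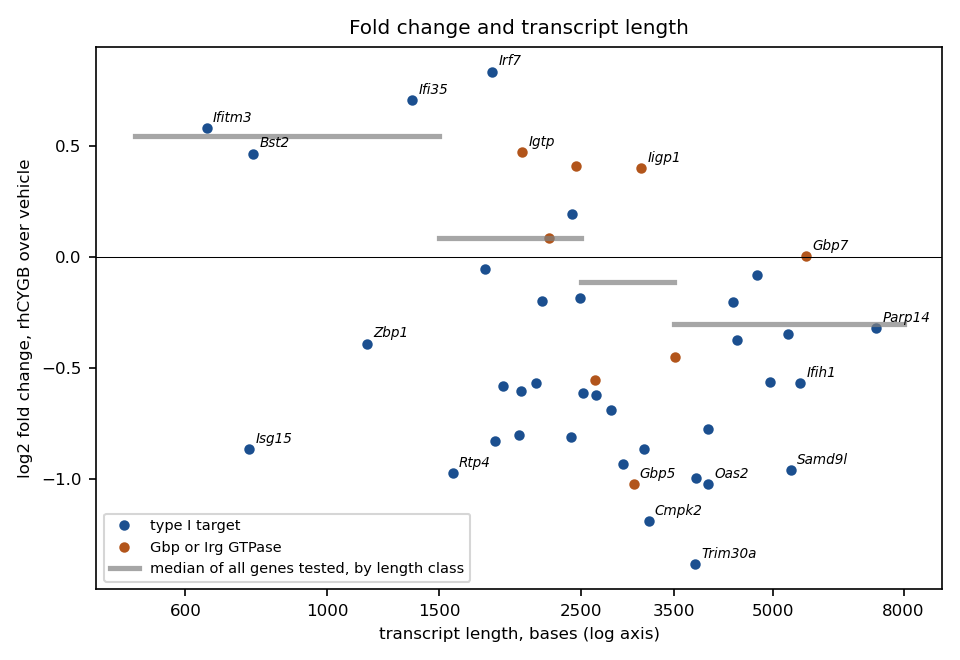
Each point is a member's log2 fold change (rhCYGB over vehicle) against its transcript length on a log axis, and the grey bars are medians over all genes tested in 4 length classes. The bars go down from 0.54 in the shortest to −0.30 in the longest class, and most type I targets over 1500 bases lie below the bar of their class.

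Without rhCYGB replicate 1, edgeR called 12 members lower and 2 higher at an adjusted p of 0.05, beside 10.5% and 12.7% of all genes. The lower ones were Cmpk2, Ddx58, Dhx58, Gbp5, Ifih1, Ifit2, Irgm2, Oasl1, Rsad2, Rtp4, Samd9l and Trim30a, and the higher ones were Irf7 and Ifi35. Of those without a value above, Trim30a had a log2 fold change of −2.60, Samd9l −1.997, Rsad2 −1.79, Ifit2 −1.71, Irgm2 −1.31 and Ifi35 1.00. The class medians were then −0.71 for type I targets and −0.0062 for GTPases. With the length trend removed as well, 11 members were called: Cmpk2, Dhx58, Ifit2, Ifit3, Isg15, Oasl1, Rsad2, Rtp4, Samd9l and Trim30a lower, beside 8.12% of all genes, and Irf7 higher. None of these 11 was a GTPase. Over the alternatives that kept rhCYGB replicate 1 at full weight, the adjusted p of the 14 genes was 0.348 to 0.986. With limma-voom quality weights, which gave that library the lowest weight of the 6, it was 0.0131 to 0.0452. The fits without rhCYGB replicate 1 set 2 rhCYGB mice against 3 vehicle mice. The left-out library was picked because it lay among the vehicle libraries, so those fits describe replicates 2 and 3. With all 6 libraries, DESeq2 called 62 genes and 0 members (2 genes, 0.106% of those with an adjusted p, were lower; 39 of 43 members had no adjusted p there), and limma-voom with sample quality weights called 4410 genes and 23 members, 21 of them lower beside 14.2% of all genes. That fit gave rhCYGB replicate 1 the lowest weight of the 6 libraries, 0.173 against 2.60 for rhCYGB replicate 2 and 0.473 for replicate 3.

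At the transcript level, 30 members had 1 listed transcript and 13 had several. Mx2 was assigned almost wholly (99.6% to 100% per library) to a transcript listed with a non-coding identifier. Oas1b, whose coding frame is broken in C57BL/6, was assigned to its non-coding transcript at 26.6%, 37.5% and 100% in the vehicle libraries and at 100% in each rhCYGB library. The short variant of Zbp1 took 49.9%, 63.7% and 71.6% with vehicle and 60.6%, 88.5% and 89.6% in rhCYGB mice, so replicates 2 and 3 were highest. Irf7 kept a similar split in all 6 libraries, with 45.6% to 59.5% on its longest transcript. In Irf9, Gbp3, Ifih1 and Iigp1 the split moved between libraries of the same group, for example from 0% to 98.5% for 1 Irf9 transcript among rhCYGB libraries, so isoforms were not compared further.

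The rest of the pathway was described from lists of other genes, and none of these passed the test. Of 21 interferon genes, 18 were at 0 in all 6 libraries and none passed the filter on low counts, so the ligands were not measurable at this depth. Among 6 receptor genes, 5 were lower and 1 higher: Ifngr1, the ligand-binding chain for interferon-gamma, had 49.5, 52.5 and 55.9 CPM in vehicle mice, against 44.0, 40.7 and 27.3 CPM in rhCYGB mice (−0.50 ± 0.26), without overlap. Ifnar2, a chain of the type I receptor, had 47.3, 96.7 and 86.9 CPM for vehicle and 65.7, 134 and 150.04 CPM for rhCYGB (0.60 ± 0.41), with overlap. Of 11 signalling genes 9 were lower, among them Jak1, a kinase of both receptors (−0.41 ± 0.37), and Irf1, an early interferon-gamma target (−0.32 ± 0.31). Of 13 tested genes that sense nucleic acids or induce interferon, 10 were lower. Lower without overlap were 2 of the 6 receptor genes, 3 of the 11 signalling genes and 3 of these 13. Over all genes, 53.2% were lower and 7.38% were lower without overlap. Tmem173 (STING) had −0.70 ± 0.30 and Irf3, the factor that starts interferon-beta production, had 0.84 ± 0.42.

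The other Gbp and Irg genes repeated the contrast between classes in part, and the other interferon-gamma targets did not. Among 37 other type I targets, 28 were lower and 9 higher, with a median of −0.33. Without overlap, 9 were lower and 1 higher, beside 7.38% and 6.02% of all genes. At an unadjusted p under 0.05, 5 were lower, beside 2.06% of all genes: Ifit3b (−1.37 ± 0.48), the DNA-binding Ifi204 (−0.64 ± 0.27) and Ifi203 (−0.69 ± 0.29), the nuclear body protein Sp100 (−0.71 ± 0.27) and Epsti1 (−1.06 ± 0.42). Among 15 other Gbp and Irg genes, 10 were lower and 5 higher, with a median of −0.16, such as Ifi47 (−0.13 ± 0.38) and Gm5431 (−1.07 ± 0.36). Among 13 other interferon-gamma targets, 9 were lower and 4 higher, with a median of −0.43, lower than that of the other type I targets. With the length trend removed, the medians were −0.53 for these interferon-gamma targets and −0.23 for the other type I targets. Ciita, the master regulator of MHC class II genes, had 2.44, 2.13 and 1.85 CPM in vehicle mice, against 0.886, 0.464 and 0.266 CPM in rhCYGB mice (−1.97 ± 0.52), and Psmb10, an immunoproteasome subunit, had 0.90 ± 0.50. Ciita did not overlap between the groups, and Psmb10 did.

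Markers of several other cell types had lower values alongside the type I targets, and none of them passed the test. All 5 monocyte markers were lower (median log2 fold change −1.69, 4 of 5 without overlap), and so were all 5 of conventional dendritic cells (median −1.14, 3 of 5 without overlap). Of all genes, 7.38% were lower without overlap. The summed level of the monocyte list was 1785, 1603 and 2588 TPM in the vehicle libraries and 1162, 1155 and 541 TPM in the rhCYGB libraries. That of the dendritic list was 16.4, 11.6 and 16.8 TPM for vehicle and 5.66, 4.36 and 2.85 TPM for rhCYGB. In neither list did the groups overlap. On the log2(TPM + 1) scale, however, 87.2% of all genes were lower with rhCYGB. The summed levels in this paragraph are not corrected for that shift. Defining markers were Ccr2 for monocytes, with 19.4, 16.1 and 12.5 CPM for vehicle and 7.40, 5.77 and 1.70 CPM for rhCYGB, and Xcr1 for dendritic cells, with 0.651, 0.638 and 0.513 CPM for vehicle and 0.0521, 0.111 and 0.106 CPM for rhCYGB. Stellate cell markers were lower in 5 of 5 genes (median −0.81, 2 of 5 without overlap) and cholangiocyte markers in 3 of 5 (median −0.64, 2 of 5 without overlap). The summed level of the cholangiocyte list was 2038, 1167 and 1325 TPM for vehicle and 874, 275 and 120 TPM for rhCYGB, also without overlap. That of the stellate list was 590, 278 and 278 TPM for vehicle and 308, 98.3 and 40.1 TPM for rhCYGB, with overlap. Medians were −0.23 for neutrophils, −0.24 for B and plasma cells (2 genes tested), −0.29 for sinusoidal endothelium and 0.11 for T and NK cells. Without overlap, 1 of 4 tested neutrophil markers was lower and 1 of 6 T and NK cell markers was higher. With the length trend removed, neutrophils had −0.89, and T and NK cells turned to −0.19. Kupffer cell markers were higher in 4 of 5 genes, with a median of 0.092. Their summed level was 825, 530 and 717 TPM for vehicle and 785, 454 and 229 TPM for rhCYGB. Hepatocyte markers, which identify the tissue as liver, were higher in 5 of 5 genes, with a median of 0.81. Markers of plasmacytoid dendritic cells, the main makers of interferon-alpha, did not pass the filter (0 of 5). Their summed level was 0.681, 1.10 and 0.308 TPM in vehicle mice, against 0.0788, 0.0758 and 0.0222 TPM in rhCYGB mice, so at these trace levels the groups did not overlap. In bulk liver, fewer cells of a type and less RNA per cell cannot be told apart, and the part these cells have in the members' values was not tested.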

How the data were processed

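Liver RNA from 6 mice (3 vehicle, 3 rhCYGB) was sequenced from both ends after a stranded poly(A) library kit, per the labels' protocols. The deposited tables hold estimated counts per gene and transcript and FPKM, which per the submitters' processing notes came from FastQC 0.11.7, HISAT2 2.1.0 and StringTie 1.3.4d on mm10. The deposited FPKM values are scaled by the authors for depth and transcript length, and were divided here by their library sum to give TPM. Neither the annotation release nor how strand was counted is named in those notes or the labels, which leaves overlapping, antisense and near-identical genes uncertain.

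The deposited counts were whole numbers already. Genes were kept by filterByExpr, scaled by TMM and compared in R 4.3.3 with edgeR 4.0.16 (robust quasi-likelihood F test, no covariates), with Benjamini-Hochberg adjustment over 14415 genes and a threshold of 0.05. The SE was taken as the absolute log2 fold change divided by the root of the F statistic. The counts are estimates, so their error need not follow that of counted reads, and the replicate spread sets the precision. The length trend of each library is a loess curve (span 0.3) of log2 CPM deviations on log2 transcript length, removed through offsets. Scripts were tested on simulated data. The alternatives were DESeq2 1.42.0 size factors and its test, upper-quartile factors, no filter or at least 1 CPM in 3 samples, limma 3.58.1 with voom (with and without quality weights) and on log2(TPM + 1) or log2(TPM + 0.1), the length correction, a threshold of 0.1, and leave-one-out fits.

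The members, lists and tests were chosen with earlier results of these data known. Per-library values are given, by rule, for the most abundant and most changed member of each role, members with an unadjusted p under 0.05, and those of at least 2-fold change without overlap; from other lists, genes with an unadjusted p under 0.05, filled up to 2 by TPM.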

Additional observations from a re-analysis of the deposited data

How the results depend on the processing

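No alternative reversed the members' median or the type I median, and the count of genes past the threshold moved most. Upper-quartile factors gave a type I median of −0.71 and a GTPase median of −0.092, beside −0.18 for all genes, with Gbp7 at −0.13 and Irgm1 at −0.055. Without an expression filter Gbp7 was −0.010. DESeq2 called 62 genes. Limma-voom with quality weights called 4410 of 14415 genes and 23 members, 21 of these lower beside 14.2% of all genes. Its medians were −0.75 (type I) and −0.59 (GTPases), a difference of −0.16, with Mx2 −0.0048, Gbp2 −0.61, Gbp7 −0.52, Igtp −0.35, Irgm1 −0.57 and Iigp1 −0.19. Limma-voom without weights called 0 genes and gave a GTPase median of −0.016 and Gbp7 −0.058. On log2(TPM + 1) the medians were −0.90 (members), −0.95 (type I) and −0.53 (GTPases), with Mx2 −0.42, Bst2 −0.27, Ifitm3 −0.18, Ifi35 −0.13, Gbp2 −0.43, Gbp7 −0.50, Igtp −0.45, Irgm1 −0.68 and Iigp1 −0.33. On log2(TPM + 0.1) they were −1.33, −1.34 and −0.73, with Mx2 −0.57, Bst2 −0.27, Ifitm3 −0.18, Ifi35 −0.13, Gbp2 −0.49, Gbp7 −0.75, Igtp −0.47, Irgm1 −0.71 and Iigp1 −0.33. The median of all genes was itself −0.51 on log2(TPM + 1) and −0.75 on log2(TPM + 0.1). With the length trend removed, Oas3 was 0.32, Eif2ak2 0.089, Bst2 −0.17, Ifitm3 −0.18 and Parp14 0.055. With it removed and rhCYGB replicate 1 left out, an alternative chosen after seeing the data, 2872 of 14647 genes and 11 members were called. Of these members 10 were lower, beside 8.12% of all genes. In that fit Oas3 was 0.64, Eif2ak2 0.071, Bst2 −0.30, Ifitm3 −0.22 and Parp14 0.18. The cause of these shifts was not tested.

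Leaving out each library in turn gave 0 to 3391 genes and 0 to 14 members called, both highest without rhCYGB replicate 1. There 12 members were called lower, beside 10.5% of all genes, and 2 higher, beside 12.7%. The medians ran from −0.65 to −0.25 for the members, −0.71 to −0.44 for the type I targets and −0.32 to 0.31 for the GTPases, and their difference from −0.76 to −0.18. Single genes that changed direction ran from −0.20 to 0.025 (Usp18), −0.72 to 0.22 (Oas3), −0.45 to 0.12 (Eif2ak2), −0.096 to 0.33 (Mx2), −0.58 to 1.01 (Gbp2), −0.20 to 0.28 (Gbp7), −0.32 to 0.78 (Igtp) and −0.27 to 0.34 (Irgm1). With DESeq2 size factors or a minimum of 1 CPM in 3 samples, no named gene changed direction. An adjusted p of 0.1 also gave 0 calls. No paired analysis was possible because replicate numbers follow the order of deposition and pair no animals. With 3 mice a group, the replicate spread sets what could be detected, and the lowest count of a member was 16.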
